A study of Homo sapiens with 6 samples.

Results

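The 51 genes described here serve protein folding in the endoplasmic reticulum (ER), the unfolded protein response and the heat shock response. They were taken as a fixed list of symbols, and all 51 were found among the 58884 gene identifiers of the count table. The list holds 18 ER chaperones and foldases, 10 genes of ER-associated degradation, 9 stress sensors and regulators, and 14 cytosolic and mitochondrial heat shock genes. All 51 passed the low-count filter and were among the 15804 genes tested, although CRYAB did so through its counts in the sgITPR3 libraries.

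Gene expression was compared between 3 sgITPR3 and 3 sgCtrl libraries of SW480 liver metastases. SW480 is a long-established line from a human colorectal tumour. The sgITPR3 cells carried a guide RNA against ITPR3, which encodes an ER channel that releases calcium in response to inositol trisphosphate, and per the labels the loss of the protein had been checked by Western blot. The sgCtrl cells carried a control guide. Both kinds of cell had been given to NSG mice, which lack a working adaptive immune system, by way of the portal vein, and had grown into tumours in the liver. Livers were digested with collagenase IV, red cells were lysed, and tumour cells were enriched on a density gradient and by removal of mouse cells, so all 6 libraries share this handling. Sequencing read 3' end tags of polyadenylated RNA. The labels do not say whether a guide line was 1 clone or a pool, the age of the mice, or how libraries relate to animals, so p-values here measure only the spread between these libraries.

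Proteins that enter the ER are folded by HSP70-type and HSP90-type chaperones, by lectin chaperones that bind sugar chains, and by protein disulfide isomerases that form and rearrange disulfide bonds. Many of these proteins bind calcium, which is held at a high level in the ER lumen. When unfolded proteins accumulate, the sensors IRE1, PERK and ATF6 start the unfolded protein response, which raises the transcription of chaperones and of degradation factors and slows translation. In the cytosol and the nucleus, HSF1 drives the heat shock genes when proteins unfold there.

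Some of these genes are known targets of the ER stress response elements, so the promoters were searched for them to show which genes carry such a sequence beside how each gene moved. RefSeq promoter windows on GRCh38.p14, running from 250 bases before to 50 bases after an annotated start, were at hand for 46 of the 51 genes. The ER stress response element ERSE was searched as CCAAT and CCACG with 9 free bases between them, ERSE-II as ATTGG and CCACG with 1 free base between them, and a heat shock element of 3 units as GAA, TTC and GAA with 2 free bases in each gap. Each was searched on both strands and without mismatch, and the words for ERSE and ERSE-II share CCACG. ERSE was found in 0.0916% of the 27305 genes with a window and in 7 of the 46, namely CALR, CANX, CRELD2, HSP90B1, HSPA5, PDIA6 and XBP1. ERSE-II was found in 0.0696% of all genes and in 3 of the 46, namely HERPUD1, HYOU1 and SDF2L1. The heat shock element was found in 0.608% of all genes and in DNAJA1, HSP90AA1, HSP90AB1, HSPA8 and HSPD1. A match is a description of the letters only, and a window without a match says only that these exact letters are not in it.

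The 250 bases before the start are shown for 4 genes that carry a match and moved in different ways. HYOU1 (chr11:119057206-119057455, minus strand, 2 matches to ERSE-II) rose, SDF2L1 (chr22:21642052-21642301, plus strand, 1 match to ERSE-II) fell, PDIA6 (chr2:10812786-10813035, minus strand, 1 match to ERSE) rose, and HSPA5 (chr9:125241344-125241593, minus strand, 1 match to ERSE) did not pass the test. Each is written 5′ to 3′ on the strand of the gene, with the matched letters in capitals.
HYOU1: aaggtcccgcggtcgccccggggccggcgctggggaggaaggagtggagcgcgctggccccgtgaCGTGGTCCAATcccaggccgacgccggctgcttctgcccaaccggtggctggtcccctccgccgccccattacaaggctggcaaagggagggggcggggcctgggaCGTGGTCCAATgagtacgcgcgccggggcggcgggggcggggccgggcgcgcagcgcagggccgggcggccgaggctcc
SDF2L1: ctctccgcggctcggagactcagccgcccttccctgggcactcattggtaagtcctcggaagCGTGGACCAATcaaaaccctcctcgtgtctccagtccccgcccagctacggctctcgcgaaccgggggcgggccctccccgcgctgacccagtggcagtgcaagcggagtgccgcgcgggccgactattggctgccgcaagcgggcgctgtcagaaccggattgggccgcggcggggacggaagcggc
PDIA6: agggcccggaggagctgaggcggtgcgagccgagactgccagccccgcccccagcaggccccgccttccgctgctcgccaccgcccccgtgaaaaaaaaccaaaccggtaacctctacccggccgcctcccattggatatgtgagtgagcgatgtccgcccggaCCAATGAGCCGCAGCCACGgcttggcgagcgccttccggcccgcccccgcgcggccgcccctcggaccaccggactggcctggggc
HSPA5: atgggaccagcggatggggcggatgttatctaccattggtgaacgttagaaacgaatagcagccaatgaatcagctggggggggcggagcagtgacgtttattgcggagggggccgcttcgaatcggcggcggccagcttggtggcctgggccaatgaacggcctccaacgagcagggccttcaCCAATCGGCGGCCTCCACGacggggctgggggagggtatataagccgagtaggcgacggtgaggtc

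The matches of other genes are shown with 10 bases on each side. XBP1 (chr22:28800593-28800631, minus strand) and HSP90B1 (chr12:103930206-103930244, plus strand, the first of its 2 matches) carry ERSE. HERPUD1 (chr16:56932015-56932045, plus strand) carries ERSE-II. HSPA8 (chr11:123062169-123062201, minus strand, 1 of its 2 matches) and HSP90AA1 (chr14:102087110-102087142, minus strand) carry the heat shock element. These 5 genes had adjusted p of 0.0581 to 0.838 in the edgeR test described next.
XBP1: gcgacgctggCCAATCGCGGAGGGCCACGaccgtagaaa
HSP90B1: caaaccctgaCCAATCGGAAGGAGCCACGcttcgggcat
HERPUD1: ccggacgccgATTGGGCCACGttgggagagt
HSPA8: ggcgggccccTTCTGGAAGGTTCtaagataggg
HSP90AA1: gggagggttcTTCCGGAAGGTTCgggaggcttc

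Libraries held 19140055 to 23943797 counts. Levels are given as CPM, counts scaled to a common library size, in which a single count equals 0.0405 to 0.0538 CPM and 3 counts, the limit that a count of 0 allows, equal 0.121 to 0.161 CPM. These intervals cover counting error only, since the tags carry no stated molecular identifiers. ITPR3 had 39.4, 41.0 and 46.2 CPM in sgITPR3 libraries, against 107.5, 93.9 and 94.2 CPM in sgCtrl libraries, a level 2.34-fold lower (edgeR quasi-likelihood test, log2 fold change -1.22, SE 0.083, adjusted p = 1.28e-07). ALB, the main hepatocyte transcript, had 231.6, 152.6 and 111.5 CPM in sgITPR3 libraries, against 33.8, 169.7 and 21.6 CPM in sgCtrl libraries, so the groups overlapped. The summed level of 14 hepatocyte genes was 170.4 to 329.6 CPM in sgITPR3 and 70.0 to 274.7 CPM in sgCtrl libraries, with APOC3 at 0 throughout. Of the 9 tested genes of that list, 8 had a log2 fold change above 0, and the median of the 9 was 1.08. APOA1 rose 2.09-fold (edgeR, adjusted p = 0.0414), SERPINA1 fell 3.12-fold (1.51e-07), and the other 7 did not pass. Markers of macrophages, endothelium, fibroblasts, erythroid cells, neutrophils and plasma cells summed to at most 32.7 CPM per list in sgITPR3 and 36.4 CPM in sgCtrl libraries. Both maxima are of the plasma cell list, made mostly of SDC1, which averaged 30.5 CPM in sgITPR3 and 35.2 CPM in sgCtrl libraries. MZB1 and IGHM of that list averaged 0.407 and 0.237 CPM in sgITPR3, against 0.124 and 0.0535 CPM in sgCtrl libraries. CLEC4G, LUM, ELANE and IGKC were at 0 in all 6 libraries. Of these lists, erythroid genes summed to 4.84 to 6.39 CPM in sgITPR3 against 0.587 to 1.34 CPM in sgCtrl libraries, a sum made mostly of HBA1 and HBA2, and fibroblast genes to 8.61 to 10.7 CPM in sgITPR3 against 6.03 to 6.51 CPM in sgCtrl libraries, made mostly of COL1A1. The neutrophil list was nearly S100A9 alone, which averaged 5.58 CPM in sgITPR3 and 12.7 CPM in sgCtrl libraries, while MPO averaged 0.215 CPM in sgITPR3 and 0.0868 CPM in sgCtrl libraries and S100A8 and CSF3R were also under 1 CPM. Of the 9 colorectal epithelial markers 7 had enough counts to be tested. The 9 summed to 2026 to 2080 CPM in sgITPR3 and 2410 to 2798 CPM in sgCtrl libraries, with KRT18 the largest part. Of the 7 that were tested, KRT19, KRT8 and EPCAM fell, while VIL1 rose 11.5-fold (edgeR, adjusted p = 1.30e-09) and CDX2 1.27-fold (0.0115). The 12 immediate early genes, which respond to tissue handling among other stimuli, summed to 4549 to 4786 CPM in sgITPR3 and 5562 to 6333 CPM in sgCtrl libraries. By edgeR 10 of them fell and BTG2 rose (log2 fold change 0.34, adjusted p = 0.0386). Of all tested genes 11.9% fell and 11.6% rose. What part any of these has in the results was not tested, except where a fit with ALB is given. Fewer cells of a type cannot be told apart from less RNA per cell. The host was a mouse, and the counts are of human genes on GRCh38. Levels of host cell markers, including those at 0, thus also depend on how mouse reads were handled, which is not given.

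Of the 51 genes, 10 rose, CRYAB with its few counts among them, and 2 fell in sgITPR3 metastases at an adjusted p under 0.05, and 39 did not pass. The share that passed, 23.5%, equals the 23.5% of all tested genes that did. By direction, 11.6% of all tested genes rose and 11.9% fell. Apart from CRYAB, none of the 12 changed by more than 1.35-fold. The groups did not overlap for 18 of the 51 genes, 15 of them higher and 3 lower in sgITPR3, where 39.3% of all tested genes did not overlap, 19.6% higher and 19.7% lower. The log2 fold change was above 0 for 37 of the 51 genes, with a median of 0.09, while the median of all tested genes was 0.000859 with 50.1% above 0. Among the 6791 tested genes of at least 20 CPM the median was -0.05, 39.9% were above 0, and 29.6% passed, 10.6% as rises and 18.9% as falls. Of the 46 genes of the list at that level, 9 rose and 2 fell, and the median was 0.09. The counts depended on single libraries. Without sgITPR3 replicate 2 the list had 4 rises and no falls, without sgCtrl replicate 3 or sgITPR3 replicate 3 it had 5 rises and 2 falls each time, and without sgCtrl replicate 1 it had 7 rises and 2 falls. In a test against a 1.2-fold change DNAJC3 passed, and so did CRYAB, which was tested only through its sgITPR3 counts.

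**Figure D1:**
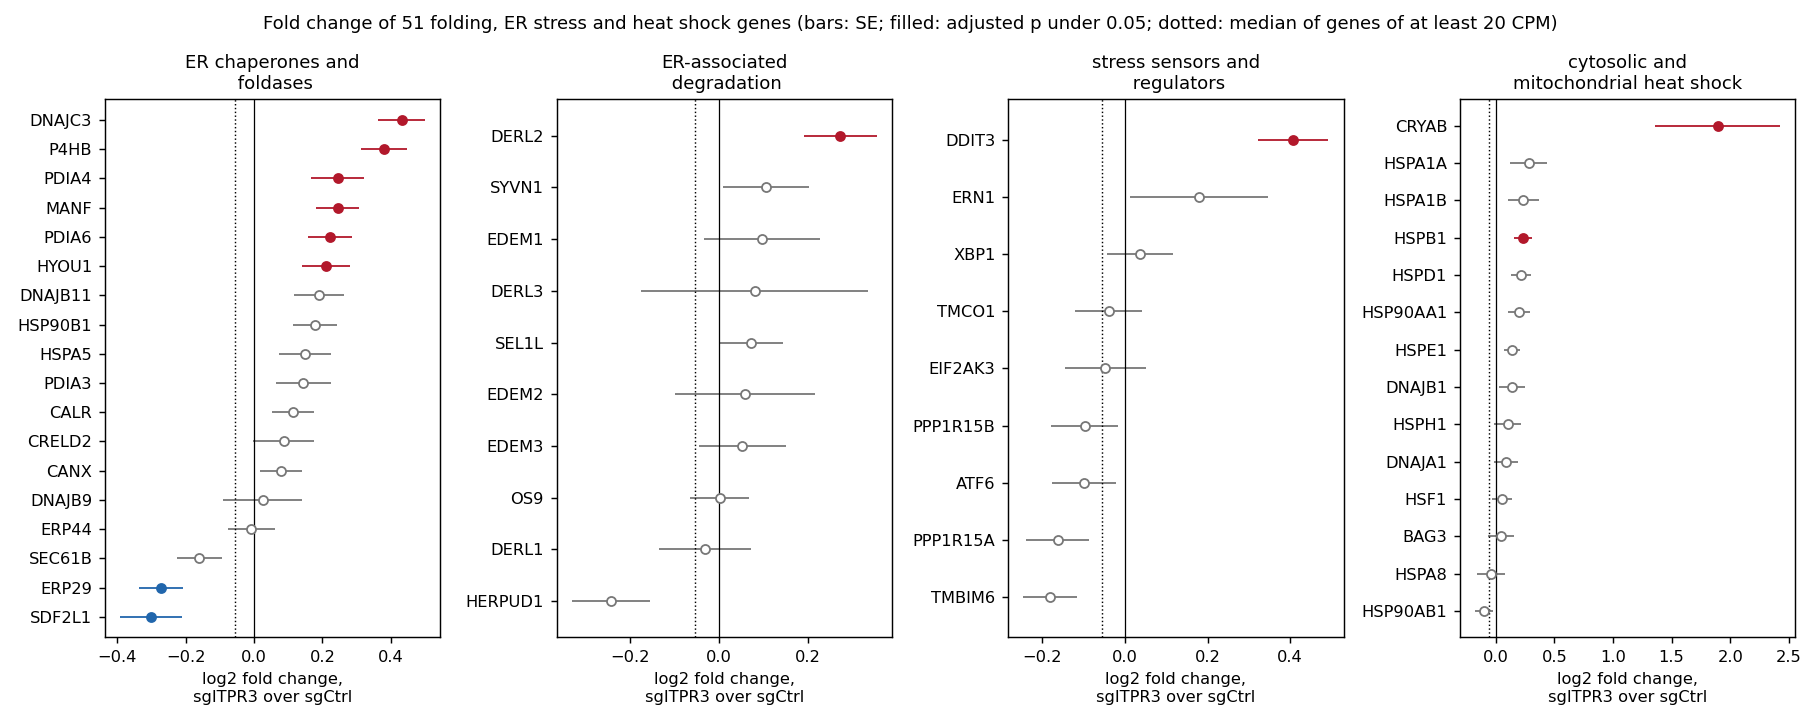
Log2 fold change of each of the 51 genes, sgITPR3 over sgCtrl, in 4 classes, with bars for its SE, filled points for an adjusted p under 0.05 (red higher, blue lower in sgITPR3) and a dotted line at -0.05, the median of tested genes of at least 20 CPM. In the class of ER chaperones and foldases 6 filled points lie above 0 and 2 below, and the scale of the heat shock panel is set by CRYAB at 1.89.

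Of the 4 classes, the ER chaperones and foldases held the most passing genes, 6 that rose and 2 that fell of 18. That is 44.4%, against 23.5% of all tested genes and 29.6% of those of at least 20 CPM, a level that all 18 reach. The median log2 fold change of the class was 0.15, and 14 of 18 values were above 0. The groups did not overlap for 12 genes, 10 of them higher in sgITPR3. Of all tested genes 39.3% did not overlap, 19.6% as higher. The summed level of the 18 genes was 6398, 6448 and 6515 CPM in sgITPR3 libraries, against 5681, 6039 and 5760 CPM in sgCtrl libraries, so every sgITPR3 library lay above every sgCtrl library. The class had 2 passing genes without sgITPR3 replicate 2, 4 without sgCtrl replicate 3, and 5 without either sgCtrl replicate 1 or sgITPR3 replicate 1. With the ALB level as a covariate 3 genes passed, DNAJC3, P4HB and ERP29, and 2005 rather than 3717 of all tested genes did.

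DNAJC3 (P58IPK, chr13:95677139-95794989) is an ER co-chaperone of the HSP70 protein BiP. It had 119.8, 127.4 and 121.0 CPM in sgITPR3 libraries, against 88.5, 96.5 and 87.9 CPM in sgCtrl libraries. Every sgITPR3 library was above every sgCtrl library, and each group lay within a narrow range. The means were 122.7 ± 4.09 CPM in sgITPR3 and 90.9 ± 4.79 CPM in sgCtrl metastases (SD, n = 3 each), a 1.35-fold rise (edgeR, log2 fold change 0.43, SE 0.068, adjusted p = 3.82e-04). It was the only one of the 12 genes to pass in all 14 alternative fits. The 17 other genes of at least 5 CPM within 5 Mb of it had a median log2 fold change of 0.25, while the median of chromosome 13 was -0.07. UGGT2, which lies next to DNAJC3 and encodes a homologue of the glucosyltransferase that marks unfolded glycoproteins, also rose (37.9 ± 1.96 CPM in sgITPR3 and 31.5 ± 1.79 CPM in sgCtrl, SD, n = 3 each; edgeR, log2 fold change 0.27, adjusted p = 0.0318). That call ended with the ALB covariate, at an edgeR adjusted p of 0.165 and a log2 fold change of 0.25. Whether the position of DNAJC3 has a part in its rise was not tested.

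Of the 4 disulfide isomerases P4HB, PDIA3, PDIA4 and PDIA6, 3 rose and PDIA3 did not pass. P4HB, the archetypal protein disulfide isomerase (chr17:81843159-81860694), had 284.8, 286.9 and 289.4 CPM in sgITPR3 libraries, against 220.1, 234.6 and 206.2 CPM in sgCtrl libraries. The sgITPR3 libraries were nearly equal, the sgCtrl libraries were more spread, and the groups did not overlap. This was a 1.30-fold rise, from means of 287.0 ± 2.35 CPM in sgITPR3 and 220.3 ± 14.2 CPM in sgCtrl metastases (SD, n = 3 each; edgeR, log2 fold change 0.38, SE 0.067, adjusted p = 9.20e-04). It passed without each single library and ended only in the test against a 1.2-fold change. The 82 neighbours of P4HB had a median log2 fold change of 0.19, and chromosome 17 one of 0.17, so P4HB lies on a chromosome whose genes were higher as a group in sgITPR3, and its part in the rise was not tested.

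PDIA6 (chr2:10783391-10837977), an isomerase that also binds BiP, had 931.1, 973.8 and 995.2 CPM in sgITPR3 libraries, against 796.6, 868.5 and 820.6 CPM in sgCtrl libraries. No sgITPR3 library reached the sgCtrl range, and the gap between the groups was smaller than the range of either group. It rose 1.17-fold (edgeR, log2 fold change 0.22, SE 0.065, adjusted p = 0.0233). The call ended without sgCtrl replicate 1 or 3 or sgITPR3 replicate 2 or 3, at edgeR adjusted p of 0.0575 to 0.0998. It also ended with the ALB covariate, at a log2 fold change of 0.19. Its gene span overlaps that of ATP6V1C2 on the other strand, and ATP6V1C2, at 0.08 on the log2 scale, did not pass.

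PDIA4 (ERp72, chr7:149003062-149028641) had 155.0, 151.4 and 133.1 CPM in sgITPR3 libraries, against 132.4, 117.1 and 121.6 CPM in sgCtrl libraries. The lowest sgITPR3 library, replicate 3, was close to the highest sgCtrl library, replicate 1. It rose 1.19-fold (edgeR, log2 fold change 0.24, SE 0.077, adjusted p = 0.0320). The call ended without sgCtrl replicate 2 or 3 or sgITPR3 replicate 1 or 2 (edgeR, adjusted p 0.0779 to 0.145). It also ended with the ALB covariate, at a log2 fold change of 0.26. PDIA3 (ERp57), which acts on glycoproteins bound to calnexin and calreticulin, had a log2 fold change of 0.14 with an adjusted p of 0.219 in the edgeR test. ERP44, a thioredoxin-type protein that is also known in other cells to bind the type 1 inositol trisphosphate receptor, had a log2 fold change of -0.01 (adjusted p = 0.945).

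MANF (chr3:51385047-51389397), a secreted ER protein that binds BiP, had 192.4, 207.5 and 192.9 CPM in sgITPR3 libraries, against 168.9, 164.8 and 166.7 CPM in sgCtrl libraries. The sgCtrl libraries were nearly equal, and all sgITPR3 libraries lay above them. It rose 1.19-fold (197.6 ± 8.56 CPM in sgITPR3 and 166.8 ± 2.03 CPM in sgCtrl, SD, n = 3 each; edgeR, log2 fold change 0.24, SE 0.064, adjusted p = 0.0129). The call ended without sgITPR3 replicate 2 (edgeR, adjusted p = 0.0959) and with the ALB covariate (0.0538). With that covariate the log2 fold change was 0.26.

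HYOU1 (GRP170, chr11:119044189-119057202), the large HSP70-type exchange factor of BiP whose promoter holds both ERSE-II matches shown above, had 233.7, 204.6 and 210.9 CPM in sgITPR3 libraries, against 179.4, 190.5 and 191.6 CPM in sgCtrl libraries. No library of a group entered the range of the other, and sgITPR3 replicate 1 stood highest. It rose 1.16-fold (edgeR, log2 fold change 0.21, SE 0.070, adjusted p = 0.0433). This call was kept in 6 of 14 alternative fits. Of the single libraries, it was kept only without sgCtrl replicate 2, and without any other it had an adjusted p of 0.0643 to 0.224.

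The 2 falls of the class were ERP29 and SDF2L1. ERP29 (chr12:112013316-112023451), a redox-inactive relative of the disulfide isomerases, had 150.2, 139.8 and 149.0 CPM in sgITPR3 libraries, against 180.6, 178.5 and 171.4 CPM in sgCtrl libraries. Every sgITPR3 library was below every sgCtrl library. It fell 1.21-fold (146.3 ± 5.69 CPM in sgITPR3 and 176.8 ± 4.79 CPM in sgCtrl, SD, n = 3 each; edgeR, log2 fold change -0.27, SE 0.065, adjusted p = 0.00723), and without sgITPR3 replicate 2 the adjusted p was 0.0564.

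SDF2L1 (chr22:21642261-21644298), part of the BiP and ERdj3 chaperone complex, had 48.2, 44.2 and 53.4 CPM in sgITPR3 libraries, against 65.1, 53.4 and 61.0 CPM in sgCtrl libraries. The highest sgITPR3 library, replicate 3, was level with the lowest sgCtrl library, replicate 2. It fell 1.23-fold (edgeR, log2 fold change -0.30, SE 0.091, adjusted p = 0.0272). The call ended without sgCtrl replicate 1 or 3 or sgITPR3 replicate 1 or 2 (edgeR, adjusted p 0.0731 to 0.139). It also ended with the ALB covariate (log2 fold change -0.16, adjusted p = 0.393). SDF2L1 and HYOU1 both carry an ERSE-II match and moved in opposite directions.

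The best-known marker of the unfolded protein response did not pass the test. HSPA5 (chr9:125234853-125241330), which encodes BiP, had 1017, 1058 and 1131 CPM in sgITPR3 libraries, against 890.1, 1064 and 937.1 CPM in sgCtrl libraries. The groups overlapped through sgCtrl replicate 2, which exceeded sgITPR3 replicates 1 and 2. The log2 fold change was 0.15 (edgeR, SE 0.077, adjusted p = 0.181), and HSPA5 passed in 1 of 14 alternatives, the fit without sgCtrl replicate 2.

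HSP90B1 (GRP94, chr12:103930107-103953645), the ER form of HSP90, had 1219, 1213 and 1174 CPM in sgITPR3 libraries, against 1055, 1114 and 1019 CPM in sgCtrl libraries. The groups did not overlap, and the log2 fold change was 0.18 (edgeR, SE 0.064, adjusted p = 0.0598). It passed in 5 of 14 alternatives, among them DESeq2 and limma-voom. The lectin chaperones CALR and CANX, calreticulin and calnexin, had log2 fold changes of 0.11 (adjusted p = 0.205) and 0.08 (0.391) in the edgeR test, with no overlap between groups for either. The co-chaperone DNAJB11 (ERdj3) was at 0.19 (0.0759), DNAJB9 (ERdj4) at 0.03 (0.902), CRELD2 at 0.09 (0.531) and the translocon subunit SEC61B at -0.16 (0.0980). Of the 7 genes with an ERSE match, PDIA6 was the only one to pass.

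**Figure D2:**
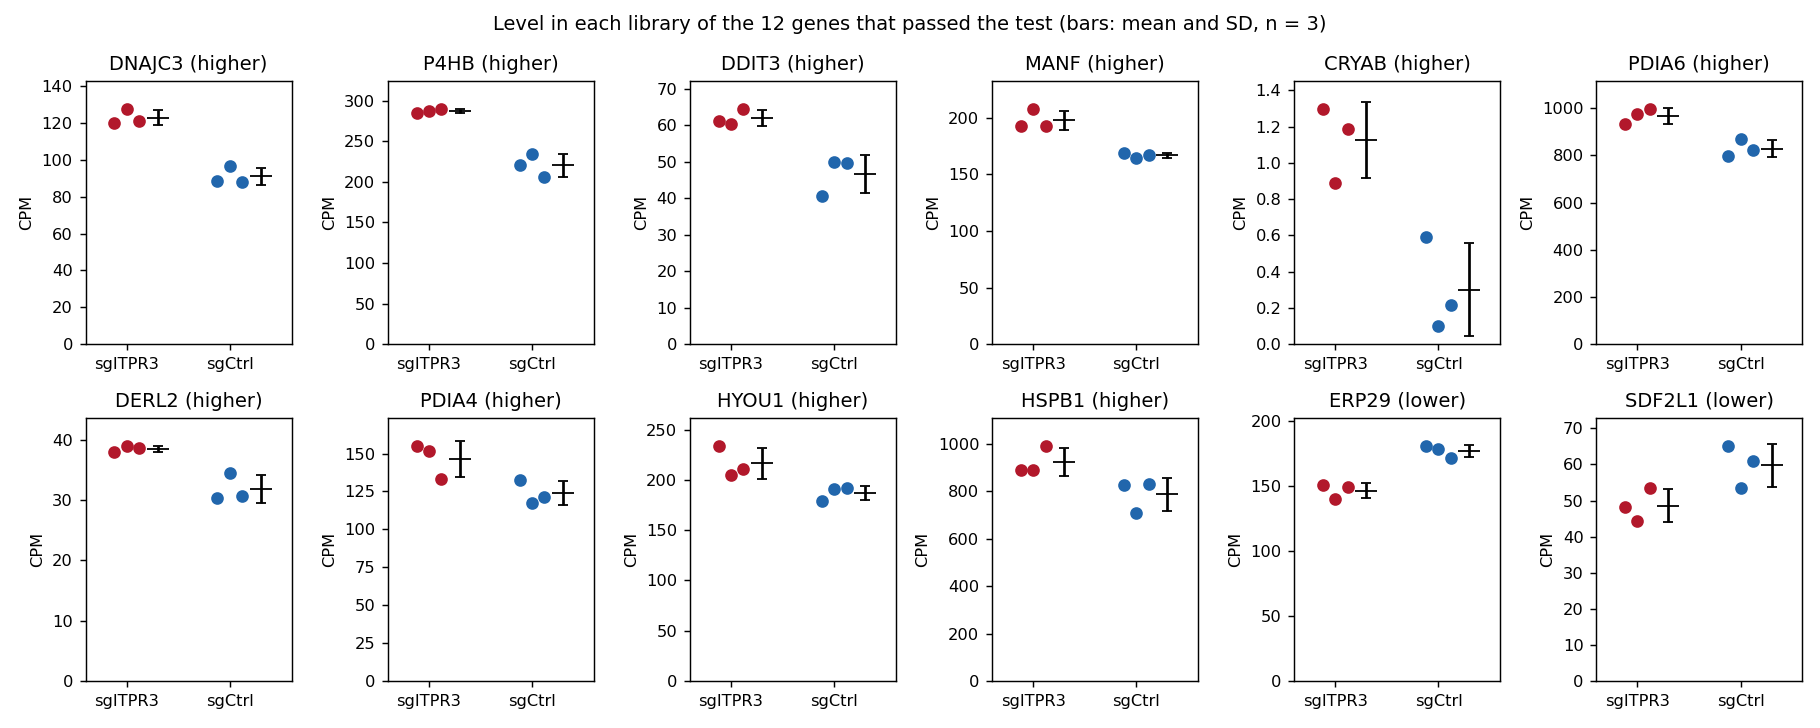
Level in CPM in each library of the 12 genes that passed the test, on axes that start at 0, with red points for sgITPR3 libraries, blue points for sgCtrl libraries and the mean and SD beside them (n = 3 each). In 11 of the 12 panels the groups do not overlap, and in that of SDF2L1 the highest sgITPR3 and the lowest sgCtrl library are level.

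ER-associated degradation returns misfolded proteins to the cytosol for destruction by the proteasome. Of its 10 genes 1 rose and none fell by edgeR, while 11.6% of all tested genes rose. At an unadjusted p under 0.05, or with DESeq2, 1 was lower, and with limma-voom 0 were. The gene was DERL2 (chr17:5471251-5486811), a derlin of the retrotranslocation machinery, with 38.0, 39.0 and 38.7 CPM in sgITPR3 libraries, against 30.4, 34.6 and 30.6 CPM in sgCtrl libraries. All sgITPR3 libraries were above the sgCtrl range and nearly equal. It rose 1.21-fold (edgeR, log2 fold change 0.27, SE 0.082, adjusted p = 0.0261), and of the single libraries the call was kept only without sgCtrl replicate 2 (otherwise adjusted p 0.0665 to 0.0996). With the ALB covariate its adjusted p was 0.300. Like P4HB it lies on chromosome 17, where its 123 neighbours had a median log2 fold change of 0.10. Its gene span overlaps that of MIS12 on the other strand, which was at 0.11 on the log2 scale and did not pass.

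HERPUD1, an ER membrane protein that recruits the degradation machinery and is a known target of the unfolded protein response, had 107.7, 115.7 and 116.3 CPM in sgITPR3 libraries, against 145.5, 143.0 and 113.8 CPM in sgCtrl libraries. The groups overlapped because sgCtrl replicate 3 was within the sgITPR3 range. Its log2 fold change was -0.24 (edgeR, SE 0.088, adjusted p = 0.0581), and it passed as lower in 4 of 14 alternatives, among them DESeq2 and the fit without sgCtrl replicate 3. The other 8 genes, which are the ubiquitin ligase SYVN1 and its partner SEL1L, the mannosidase-like EDEM1, EDEM2 and EDEM3, the lectin OS9, DERL1 and DERL3, overlapped between groups and had log2 fold changes of -0.03 to 0.11. DERL3 was low, with 3.11, 2.02 and 3.76 CPM in sgITPR3 and 2.47, 2.83 and 3.04 CPM in sgCtrl libraries.

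Among the 9 stress sensors and regulators, DDIT3 rose, and the 3 sensors themselves did not pass. None fell by edgeR, 2 were lower at an unadjusted p under 0.05, and 1 was lower with DESeq2 and 1 with limma-voom. The share that rose was 11.1%, against 11.6% of all tested genes. Without sgCtrl replicate 1 TMBIM6 also passed, as lower, and without sgCtrl replicate 2 PPP1R15A did, also as lower. DDIT3 (CHOP, chr12:57516588-57521737), the transcription factor induced late in ER stress downstream of PERK and ATF4, had 61.1, 60.3 and 64.3 CPM in sgITPR3 libraries, against 40.7, 49.8 and 49.5 CPM in sgCtrl libraries. Every sgITPR3 library was above every sgCtrl library, and sgCtrl replicate 1 was the lowest. It rose 1.33-fold (61.9 ± 2.14 CPM in sgITPR3 and 46.7 ± 5.20 CPM in sgCtrl, SD, n = 3 each; edgeR, log2 fold change 0.41, SE 0.085, adjusted p = 0.00325). It passed without each single library and ended only in the test against a 1.2-fold change. Its gene span overlaps those of MARS1 and MBD6 on the other strand, and MARS1, at -0.10 on the log2 scale, did not pass. Its 108 neighbours had a median of -0.15.

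ERN1, which encodes the sensor IRE1, had 14.5, 14.9 and 13.0 CPM in sgITPR3 libraries, against 15.2, 13.7 and 8.60 CPM in sgCtrl libraries. The groups overlapped, sgCtrl replicate 3 was low, and the log2 fold change was 0.18 (edgeR, SE 0.167, adjusted p = 0.479), or -0.03 without that library. EIF2AK3, which encodes PERK, had 21.0, 21.5 and 19.1 CPM in sgITPR3 libraries, against 22.1, 21.9 and 19.7 CPM in sgCtrl libraries, with a log2 fold change of -0.05 (adjusted p = 0.774). ATF6 had 52.7, 49.2 and 46.3 CPM in sgITPR3 libraries, against 50.9, 52.8 and 55.2 CPM in sgCtrl libraries, with a log2 fold change of -0.10 (adjusted p = 0.384). All 3 sensors overlapped between the groups.

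XBP1, whose messenger RNA is spliced by IRE1, had 68.7, 74.2 and 73.7 CPM in sgITPR3 libraries, against 70.6, 77.3 and 63.2 CPM in sgCtrl libraries. The sgITPR3 libraries lay inside the sgCtrl range, and the log2 fold change was 0.04 (edgeR, SE 0.080, adjusted p = 0.791). Tags from the 3' end do not cover the spliced site, so the spliced share was not measured. PPP1R15A (GADD34) and PPP1R15B (CReP), which direct the phosphatase that reverses PERK's action on translation, had log2 fold changes of -0.16 (adjusted p = 0.137) and -0.10 (0.423). TMBIM6 (BAX inhibitor 1), an ER membrane protein linked to calcium leak, had 608.7, 584.7 and 613.5 CPM in sgITPR3 libraries, against 647.9, 688.4 and 711.5 CPM in sgCtrl libraries. All its sgITPR3 libraries were below the sgCtrl libraries, with a log2 fold change of -0.18 (edgeR, SE 0.065, adjusted p = 0.0578), and it passed in 4 of 14 alternatives. TMCO1, an ER protein linked to calcium load, was at -0.04 (0.775).

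Of the 14 cytosolic and mitochondrial heat shock genes, HSPB1 rose, and CRYAB, which entered the test only through its sgITPR3 counts, was also called higher. Among the 13 of at least 20 CPM, which leave out CRYAB, 1 rose, 7.69% against 10.6% of all tested genes at that level. None fell by edgeR, DESeq2, limma-voom or at an unadjusted p under 0.05. The log2 fold change was above 0 for 12 of the 14, with a median of 0.14. HSPB1 (HSP27, chr7:76302544-76304295), a small heat shock protein, had 890.1, 888.6 and 991.6 CPM in sgITPR3 libraries, against 824.8, 707.1 and 831.2 CPM in sgCtrl libraries. The groups did not overlap, and the low sgCtrl replicate 2 widened their distance. It rose 1.17-fold (edgeR, log2 fold change 0.23, SE 0.078, adjusted p = 0.0450). The call was kept without sgCtrl replicate 3 alone, and without any other library the adjusted p was 0.0506 to 0.166.

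CRYAB (alpha B-crystallin, chr11:111908565-111923722), another small heat shock protein, had 30, 22 and 23 counts in sgITPR3 libraries, against 11, 2 and 4 counts in sgCtrl libraries. These equal 1.30, 0.890 and 1.19 CPM in sgITPR3 libraries, against 0.592, 0.0994 and 0.214 CPM in sgCtrl libraries, where replicate 2 was below the 3-count limit. The groups did not overlap. The fitted log2 fold change was 1.89 (edgeR, SE 0.532, adjusted p = 0.0188), but at such counts its size depends on the prior count. The call ended without sgCtrl replicate 3 or sgITPR3 replicate 1 or 3 (adjusted p 0.0600 to 0.0764), and under a filter of 1 CPM in 3 libraries the gene was not tested.

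The inducible HSP70 genes HSPA1A and HSPA1B are nearly identical in sequence, so their split of reads is uncertain. HSPA1A (chr6:31815464-31817946) had 371.0, 571.6 and 593.2 CPM in sgITPR3 libraries, against 523.9, 350.2 and 389.2 CPM in sgCtrl libraries. HSPA1B had 107.8, 161.1 and 155.4 CPM in sgITPR3 libraries, against 135.4, 102.9 and 122.0 CPM in sgCtrl libraries. In both genes sgITPR3 replicate 1 was far below the other 2 of its group and sgCtrl replicate 1 was above the other 2 of its own, so the groups overlapped. Their log2 fold changes were 0.28 (edgeR, adjusted p = 0.220) and 0.24 (0.210).

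HSPA8, the constitutive HSP70, had 379.6, 457.8 and 472.1 CPM in sgITPR3 libraries, against 545.2, 373.6 and 428.6 CPM in sgCtrl libraries, with a log2 fold change of -0.04 (edgeR, adjusted p = 0.838). HSP90AA1, the inducible cytosolic HSP90, had 4857, 5545 and 5997 CPM in sgITPR3 libraries, against 5213, 4202 and 4889 CPM in sgCtrl libraries (log2 fold change 0.20, adjusted p = 0.136). Again sgITPR3 replicate 1 and sgCtrl replicate 2 were the lowest of their groups. The mitochondrial chaperonin HSPD1 (HSP60) had 933.1, 1003 and 1150 CPM in sgITPR3 libraries, against 894.5, 823.1 and 940.5 CPM in sgCtrl libraries (log2 fold change 0.22, adjusted p = 0.0723).

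Its partner HSPE1 (HSP10) was at 0.14 (edgeR, adjusted p = 0.162), without overlap between groups. HSPD1 and HSPE1 overlap on opposite strands, and the strand setting of the counting is not given. HSPA8, HSPD1 and HSPE1 have 17, 17 and 26 annotated pseudogenes under their names. Their counts are thus uncertain, as are those of HSP90AA1 and HSP90AB1, which have processed copies in the genome. Of the passing genes, HSPB1 has 2 annotated pseudogenes under its name and ERP29 has 1. Of the other genes that did not pass, DNAJA1 has 6, PDIA3 has 2, and XBP1 and DNAJB1 have 1 each. HSF1, the regulator of the response, had 44.2, 45.4 and 48.2 CPM in sgITPR3 libraries, against 48.9, 43.0 and 40.8 CPM in sgCtrl libraries. Its groups overlapped, with a log2 fold change of 0.05 (adjusted p = 0.687). HSP90AB1, the constitutive HSP90, was at -0.10, the HSP40 proteins DNAJB1 and DNAJA1 at 0.14 and 0.09, the HSP110 protein HSPH1 at 0.10 and the co-chaperone BAG3 at 0.05, with adjusted p of 0.386 to 0.798. Of the 5 genes with a heat shock element match, HSPD1 had the smallest edgeR adjusted p, the 0.0723 given above. It passed in 5 of 14 alternatives, which were DESeq2, the replicate block, no low-count filter, the ALB covariate and the fit without sgITPR3 replicate 1. HSP90AA1 passed in 2, with no low-count filter and with the ALB covariate, and DNAJA1, HSP90AB1 and HSPA8 in none of the 14.

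The heat shock genes differed between libraries of the same group more than the ER chaperones did, and mostly in the same libraries. Of the 14 genes, 12 were lowest of the sgITPR3 libraries in replicate 1 and 11 were highest in replicate 3. Among sgCtrl libraries 13 were lowest in replicate 2 and 11 were highest in replicate 1. The median log2 deviation from the group mean was -0.16, 0.02 and 0.13 in sgITPR3 replicates 1 to 3, and 0.16, -0.18 and -0.00263 in sgCtrl replicates 1 to 3. For the 18 ER chaperones these medians lay between -0.03 and 0.02. The median coefficient of variation was 11.1% in sgITPR3 and 12.2% in sgCtrl libraries for the heat shock genes, against 4.27% and 4.89% for the ER chaperones and 5.31% and 6.79% for all tested genes of at least 20 CPM.

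The libraries lowest in heat shock genes were those highest in ALB of their group, sgITPR3 replicate 1 with 231.6 CPM and sgCtrl replicate 2 with 169.7 CPM. With the ALB level as a covariate, 7 of the 14 heat shock genes passed, all higher. Of the 15804 genes tested with that covariate 2005 passed, 1012 higher and 993 lower. HSPA1A had a log2 fold change of 0.55 (edgeR, adjusted p = 0.0299) in that fit, HSPA1B one of 0.48 (0.0204), HSP90AA1 one of 0.38 (0.00910), HSPD1 one of 0.35 (0.0127) and HSPH1 one of 0.35 (0.0406). HSPB1 and CRYAB passed with and without it. HSPA8 was at 0.19 (0.344), against -0.04 without the covariate, and did not pass in either fit. Without sgITPR3 replicate 1, 4 of the 14 passed, and 1 did without sgCtrl replicate 2, sgCtrl replicate 3 or sgITPR3 replicate 2. Without sgITPR3 replicate 3 none did, the smallest edgeR adjusted p being 0.0600 for CRYAB. Over the fits without 1 library, 2331 to 4261 of the 16164 to 16463 genes tested passed. Whether the liver RNA, the recovery of the cells or another property of these libraries has a part in the heat shock levels was not tested.

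**Figure D3:**
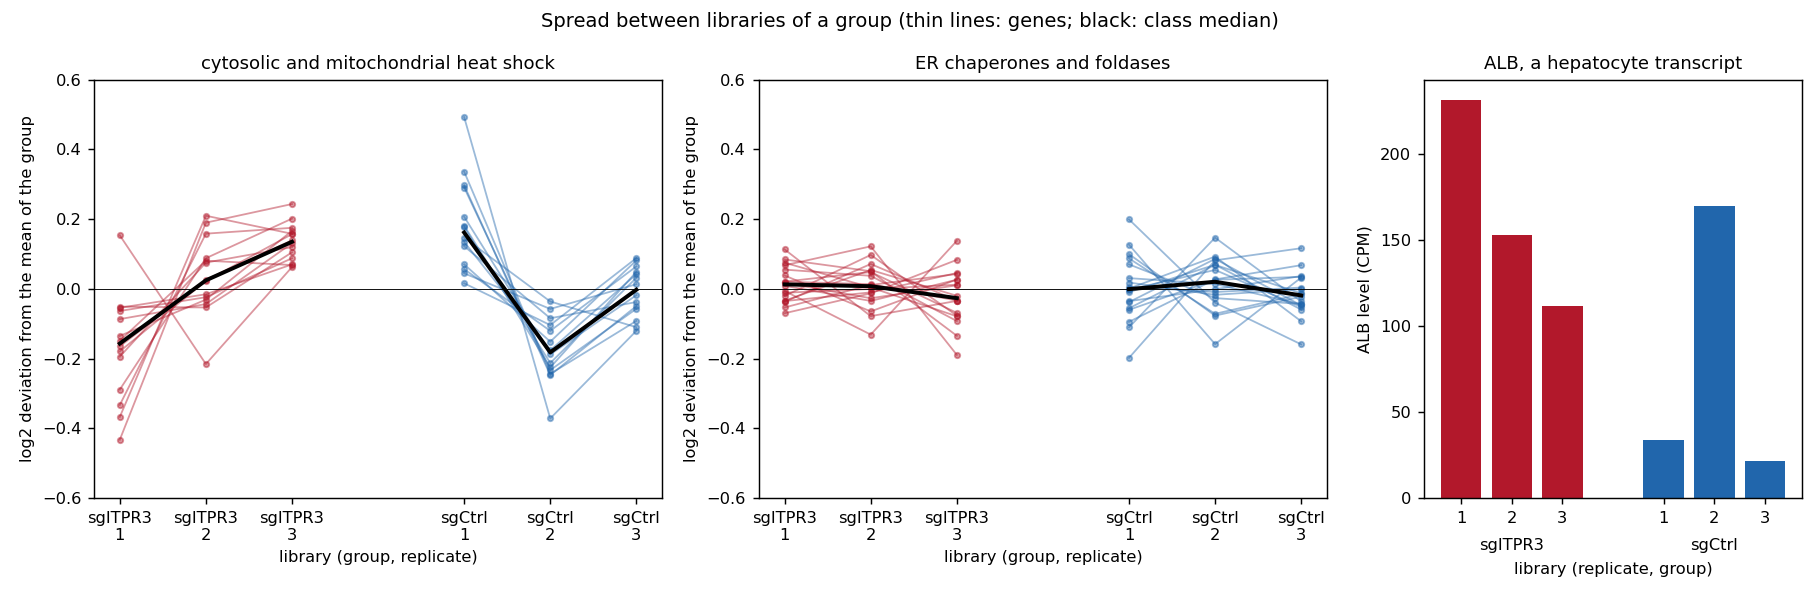
Log2 deviation of each gene from the mean of its own group in each library for the heat shock class (left) and the ER chaperones and foldases (middle), with thin lines joining the values of 1 gene and a black line for the median, and the ALB level in CPM in each library (right, bars from 0). The medians of the heat shock class run from -0.18 to 0.16 and are lowest in sgITPR3 replicate 1 and sgCtrl replicate 2, the libraries with the highest ALB of their groups, while those of the chaperones stay between -0.03 and 0.02.

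Genes that work beside these classes were read from further lists. Of 10 tested oxidoreductases of the ER outside the class above, ERO1B, an oxidase that recharges disulfide isomerases, rose (39.9 ± 4.07 CPM in sgITPR3 and 28.2 ± 2.80 CPM in sgCtrl, SD, n = 3 each; edgeR, log2 fold change 0.50, adjusted p = 0.00220) and the other 9 had log2 fold changes of -0.35 to -0.02 and did not pass. Of these 9, 2 were lower at an unadjusted p under 0.05. In the glycoprotein folding cycle 2 of 11 rose and 1 fell, 27.3% in all, against 23.5% of all tested genes and 29.6% of those of at least 20 CPM. The rises were UGGT2, given above, and UGGT1 (edgeR, log2 fold change 0.19, adjusted p = 0.0483), and the fall was the glucosidase subunit PRKCSH (-0.40, adjusted p = 0.0243). The calls of UGGT1 and PRKCSH ended with the ALB covariate (edgeR, log2 fold changes 0.23 and -0.21, adjusted p 0.0908 and 0.375). None of 13 genes of the translocon and signal peptide handling passed by edgeR, DESeq2 or limma-voom, where 23.5% of all tested genes passed by edgeR. Of the 13, 1 was lower at an unadjusted p under 0.05.

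The oligosaccharyltransferase, which attaches sugar chains to entering proteins, had 3 rises among 10 genes, 30.0% against 11.6% of all tested genes that rose. STT3B, a catalytic subunit, had 165 ± 11.9 CPM in sgITPR3 and 115 ± 4.22 CPM in sgCtrl metastases (SD, n = 3 each; edgeR, log2 fold change 0.52, SE 0.072, adjusted p = 1.20e-04). Its partner MAGT1 was higher by 0.35 (adjusted p = 0.0129) and RPN2 by 0.20 (0.0456) on the log2 scale. None fell by edgeR, DESeq2 or limma-voom, and 2 were lower at an unadjusted p under 0.05. STT3B passed with the ALB covariate too (edgeR, adjusted p = 8.79e-04), while MAGT1 and RPN2 did not (0.210 and 0.256). In that fit the log2 fold changes of MAGT1 and RPN2 were 0.22 and 0.16. Of 18 other genes of ER-associated degradation none rose by edgeR, DESeq2, limma-voom or at an unadjusted p under 0.05, and 6 fell, 33.3% against 11.9% of all tested genes that fell and 18.9% of those of at least 20 CPM. The 3 with the smallest adjusted p were the ubiquitin-conjugating enzymes UBE2J1 (edgeR, log2 fold change -0.50, adjusted p = 1.22e-04) and UBE2J2 (-0.39, 0.00104) and ERLIN1 (-0.31, 0.00914), a subunit of the complex that degrades activated inositol trisphosphate receptors. UBE2J1 and UBE2J2 passed with the ALB covariate, and ERLIN1 had an edgeR adjusted p of 0.0593 at a log2 fold change of -0.31.

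DDIT3 is reached through the ATF4 branch of the response. Of 20 further genes of that branch, 3 rose and 6 fell, where 11.6% of all tested genes rose and 11.9% fell. SLC7A11, the cystine transporter, was low and had 3.51 ± 0.0636 CPM in sgITPR3 and 0.804 ± 0.338 CPM in sgCtrl metastases (SD, n = 3 each; edgeR, log2 fold change 2.12, SE 0.302, adjusted p = 1.62e-04). PHGDH, which opens serine synthesis, rose (edgeR, log2 fold change 0.32, adjusted p = 0.00553), and ATF3, a transcription factor that is also an immediate early gene, fell (-0.37, 0.00944). With the ALB covariate SLC7A11 passed, while PHGDH and ATF3 did not (edgeR, log2 fold changes 0.29 and -0.21, adjusted p 0.0701 and 0.195). ATF3 fell together with 9 others of the 12 immediate early genes, while BTG2 of that list rose. Of 11 other transducers of the response 4 fell, 36.4% against 11.9% of all tested genes that fell and 18.9% of those of at least 20 CPM. Among them were BBC3, which encodes the cell death protein PUMA (edgeR, log2 fold change -0.33, adjusted p = 0.00316), CREB3 (-0.27, 0.0106) and the kinase MAP3K5 (-0.68, 0.0348). None rose by edgeR or DESeq2, 1 was higher with limma-voom and 2 were at an unadjusted p under 0.05. With the ALB covariate BBC3 passed, while CREB3 and MAP3K5 did not (edgeR, log2 fold changes -0.26 and -0.39, adjusted p 0.0789 and 0.385).

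Outside the heat shock class, 1 of 18 other genes of the HSP70, HSP40 and HSP110 systems rose and 3 fell, 22.2% in all, against 23.5% of all tested genes. The rise was HSPA13, which sits in microsomes (edgeR, log2 fold change 0.34, adjusted p = 0.0199), and BAG1 (-0.43, 0.00291) and HSPBP1 (-0.52, 0.00300), both exchange factors of HSP70, fell. Their calls ended with the ALB covariate (edgeR, log2 fold changes 0.25, -0.34 and -0.33, adjusted p 0.236, 0.0676 and 0.0970). Of 10 HSP90 cochaperones 2 rose and 3 fell, where 11.6% of all tested genes rose and 11.9% fell. They include PPID (edgeR, log2 fold change 0.34, adjusted p = 0.0126), CHORDC1 (0.35, 0.0217) and PTGES3 (-0.24, 0.0185). With the ALB covariate PPID and CHORDC1 passed and PTGES3 did not (edgeR, log2 fold change -0.17, adjusted p = 0.215). Of 8 subunits of the cytosolic chaperonin TRiC, CCT5 (edgeR, log2 fold change -0.36, adjusted p = 0.00232) and CCT2 (-0.22, 0.0400) fell, where 18.9% of tested genes of at least 20 CPM did, and none rose by edgeR, DESeq2, limma-voom or at an unadjusted p under 0.05. All 8 were lowest of the sgCtrl libraries in replicate 2, the library with the most ALB of that group. Among sgITPR3 libraries 5 were lowest in replicate 2, and 3 in replicate 1, which had the most ALB there. With the ALB covariate neither CCT5 nor CCT2 passed (edgeR, log2 fold changes -0.23 and -0.09, adjusted p 0.0643 and 0.562). None of 10 other mitochondrial chaperones and proteases, of 2 tested further small heat shock genes, or of 3 further heat shock factors passed by edgeR, DESeq2 or limma-voom. At an unadjusted p under 0.05, 2 of the mitochondrial genes, 1 of the small heat shock genes and 0 of the factors were lower, and none was higher.

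**Figure D4:**
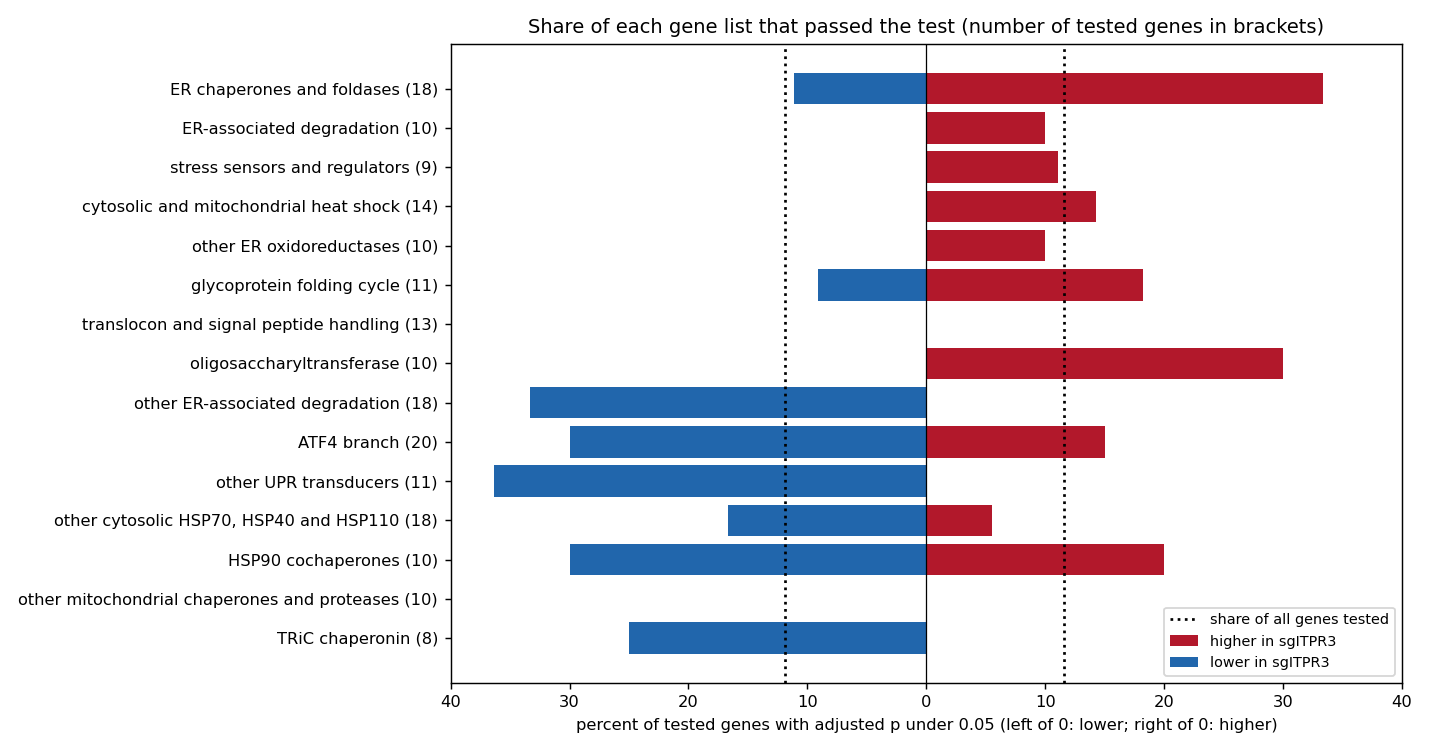
Percent of the tested genes of each list with an adjusted p under 0.05, with red bars to the right for genes higher in sgITPR3, blue bars to the left for genes lower, the number of tested genes in brackets, and dotted lines at the shares of all tested genes, 11.6% higher and 11.9% lower. The bar of the ER chaperones and foldases reaches 33.3% on the higher side, that of the oligosaccharyltransferase 30.0%, and that of the other genes of ER-associated degradation 33.3% on the lower side; lists of under 8 tested genes are not drawn.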

How the data were processed

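RNA was measured in 3 sgITPR3 and 3 sgCtrl libraries, grouped by their labels. The deposited values are raw counts per gene. STAR 2.6.0a, featureCounts 1.6.3 and DESeq2 were used by the authors on GRCh38, per the submitters' processing notes. Not given in the sources used here are the annotation release, whether counting used strand, and how mouse reads and multiply aligned reads were handled, and each of these can shift the counts of overlapping genes and near-identical copies. Positions are from GENCODE release 29, on GRCh38. Promoters are from RefSeq on GRCh38.p14.

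With R 4.3.3 and edgeR 4.0.16, filterByExpr (minimum count 10) chose the genes and TMM scaled the libraries. The quasi-likelihood F test compared sgITPR3 with sgCtrl with no covariate, with Benjamini-Hochberg adjustment across the 15804 genes tested. An adjusted p under 0.05 passed. The biological coefficient of variation came to 9.53%. Correlations within a group were 0.991 to 0.995, and no library differed from another of its group by as little as sampling noise. The procedure was tested on simulated data. The alternative fits used RLE scaling, DESeq2 1.42.0, limma-voom (limma 3.58.1), all genes unfiltered, genes of 1 CPM in 3 libraries, a block for the replicate number, the log2 ALB level as a covariate, a test against 1.2-fold, or left out each library.

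Values of every library are given for each of the 51 genes that passed and for HSPA5, HSP90B1, XBP1, ATF6, ERN1, EIF2AK3, DDIT3, DNAJC3, HSF1, HSPA1A, HSPA1B and HSPA8, and up to 3 passing genes are named from each further list. HERPUD1, TMBIM6, DERL3, HSP90AA1 and HSPD1 were given in full, and the overlapping and neighbouring genes and the single marker genes other than ALB named, after their values were seen. The 51 genes and all lists were chosen with earlier results of these data known. Of the marker genes, 1 is not reported here.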

Additional observations from a re-analysis of the deposited data

How the results depend on the processing

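Of the 14 alternative fits, RLE scaling moved no count of calls by over 1.5 times. All tested genes that passed were 2005 with the ALB covariate (1012 higher, 993 lower) and 1565 in the test against 1.2-fold (892 higher, 673 lower). Leaving out 1 library gave 2331 to 4261 (1135 to 2121 higher, 1196 to 2140 lower), with the lowest counts without sgITPR3 replicate 2. Of the 51 genes, leaving out 1 library gave 4 to 13 calls, 4 to 10 higher and 0 to 3 lower. Against 1.2-fold there were 2, 2 higher and 0 lower, and DESeq2 gave 4 lower. ER chaperones and foldases had 2 to 9 calls without 1 library, 3 with the ALB covariate and 1 against 1.2-fold. ER-associated degradation had 0 to 1 without 1 library, 2 with no filter, 2 with DESeq2 and 0 against 1.2-fold. Stress sensors and regulators had 1 to 2 without 1 library, 2 with DESeq2, 2 with limma-voom and 0 against 1.2-fold. Heat shock genes had 0 to 4 without 1 library, 6 with no filter, 1 with the filter of 1 CPM in 3 libraries, 7 with the ALB covariate and 1 against 1.2-fold. The cause of these differences was not tested. ITPR3 passed as lower throughout.

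Whether the replicate numbers pair the libraries is not given in the labels. Same-numbered libraries correlated in their deviations at -0.0496, 0.056 and 0.132, and differently numbered ones at -0.151 to 0.111. Such values from 3 libraries per group cannot settle it. With the replicate number as a block 15 of the 51 genes passed, 2 of them sensors and regulators.

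Over all fits, the 12 passing genes kept their call in 118 and lost it in 49 gene-by-fit comparisons, with no change of sign. The 39 others gained one in 31 and changed sign in 37 comparisons. With the ALB covariate the log2 fold change was -0.0111 for DNAJB9, -0.0107 for SEL1L, -0.0735 for SYVN1, -0.0964 for EDEM1, -0.222 for EDEM2, -0.0255 for ERN1, -0.0697 for XBP1, 0.189 for HSPA8 and 0.0340 for HSP90AB1. It was 0.000667 for ERP44 under the 1 CPM filter and -0.00419 for OS9 with no filter. Without 1 library it ranged from -0.0479 to 0.0283 for ERP44, -0.0553 to 0.127 for DNAJB9, -0.0710 to 0.196 for EDEM2, -0.151 to 0.0569 for DERL1, -0.122 to 0.298 for DERL3, -0.0466 to 0.0288 for OS9, -0.0313 to 0.336 for ERN1, -0.0382 to 0.106 for XBP1, -0.101 to 0.000943 for EIF2AK3, -0.102 to 0.0540 for TMCO1, -0.161 to 0.116 for HSPA8, -0.00824 to 0.189 for DNAJA1, -0.00793 to 0.231 for HSPH1, -0.0669 to 0.202 for BAG3 and -0.00225 to 0.126 for HSF1. Depth limits CRYAB and DERL3 most, with few counts per library.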
